A study of Bos taurus and Bos indicus with 3 samples.

Results

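Mitochondrial ribosomal proteins are nuclear-encoded proteins that build the ribosome of the mitochondrion, and their transcripts were measured in leukocytes of 3 cattle breeds. The genes were chosen by name: a gene model was taken when its listed name was an MRPL or MRPS symbol followed by a number alone, DAP3, or the bovine entry name of the same protein in the UniProt database (RM or RT and a number). This gave 64 genes on 65 of the 25968 gene models in the table, 62 of them by entry name and 2 by symbol, MRPL40 and MRPS15. They comprised 43 proteins of the large subunit, 20 of the small subunit and MRPS36. The last carries a ribosomal symbol but is now known as a subunit of the 2-oxoglutarate dehydrogenase complex. It had a role group of its own and was kept in all counts, sums and medians of the 64 genes. MRPS17 stood on 2 models, of which the more abundant was used.

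The mitochondrial ribosome translates the messages of the mitochondrial genome, which encode core subunits of the respiratory chain and of ATP synthase. All of its proteins are made in the cytosol and imported, while its large RNAs are transcribed inside the organelle. Many of its proteins have counterparts in bacteria, and others were added during the evolution of mitochondria. Leukocytes draw on mitochondria for energy, biosynthesis and signalling, and lymphocytes expand their mitochondrial translation machinery when they are activated.

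Each breed was represented by 1 RNA-seq library made from leukocytes of pooled cows: 40 Holstein and 7 Jersey, which are taurine dairy breeds sampled in Wisconsin, and 45 Cholistani, an indicine breed sampled in Punjab, Pakistan. Tail vein blood was pooled in equal volumes before red cells were lysed and polyadenylated RNA was prepared, and the Cholistani RNA was shipped dry in a stabilizing matrix. Breed, place and shipping therefore cannot be told apart. With 1 library per breed there were no replicates, so every difference below compares 3 pools and carries no error or test. The values were FPKM, fragment numbers scaled by transcript length, which the authors upper-quartile normalized between libraries, and they allow levels to be compared between genes. Differences are log2 folds of FPKM + 1, which understate the change of genes near 0, and "at least 2-fold" refers to that scale.

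The FPKM of all models was 5949770 for the Holstein library, 6288100 for Jersey and 9518430 for Cholistani when added up. Upper-quartile normalized values need not have equal sums, and the median log2 fold of models with at least 10 FPKM was 0.20 for Cholistani over Holstein and 0.17 over Jersey. As an alternative scale, the main counts and folds of the genes are also given with the 3 libraries rescaled to the mean of the sums, which moved the median log2 fold (all models) of Cholistani over Holstein from 0.15 to -0.43 and that over Jersey from 0.12 to -0.41. The leukocyte markers LAPTM5, CORO1A and CD53, 3 measured of 5 listed, were above 0 in every library and summed to 23854, 22860.1 and 37098 FPKM in Holstein, Jersey and Cholistani. A listed gene counted as measured, here and in the lists below, only if a model carried its name alone. Genes not measured may stand on merged or differently named models. The summed markers of B cells (2 of 4 measured) were 6246, 7671 and 16017 FPKM, those of T cells (4 of 5) 4662, 4651 and 9757, those of monocytes (2 of 4) 671, 429 and 689, those of neutrophils (4 of 4) 19228, 16623 and 18354, and those of platelets (2 of 4) 905, 1043 and 811. Within the neutrophil sum the markers went different ways, with log2 folds of Cholistani over Holstein from -0.51 for S100A8 to 4.12 for CXCR2 (-1.19 and 3.45 rescaled). Of the red cell markers 3 of 5 were measured: AHSP was listed at 0 in every library, ALAS2 had 536, 363 and 32.3 FPKM and HBA went the other way, listed at 0 in Holstein with 11.5 and 69.3 FPKM in the others. The summed T and B cell markers were highest in the Cholistani library as deposited, as were most of the genes described below, but after rescaling CD3G, CD3D and CD5 had folds over Holstein of -0.34, -0.06 and -0.06. The part of cell composition in the values was not tested. In RNA from mixed leukocytes, fewer cells of a type and less RNA per cell cannot be told apart.

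All 64 genes were above 0 in each library, and 63 had at least 40 FPKM in all of them. The median level was 181 FPKM in Holstein, with a range of 2.25 to 592, 214 FPKM in Jersey, with a range of 13.2 to 766, and 289 FPKM in Cholistani, with a range of 89.2 to 951. The large subunit had medians of 180.3, 199 and 285 FPKM and the small subunit medians of 183, 231 and 295 FPKM, so the subunits lay close together within each library. The 64 genes together summed to 13420 FPKM in the Holstein pool, 14282 in the Jersey pool and 24035 in the Cholistani pool. Per library this was 0.226%, 0.227% and 0.253% of the FPKM of all models, so the libraries differed less in this share than in the summed level.

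**Figure D1:**
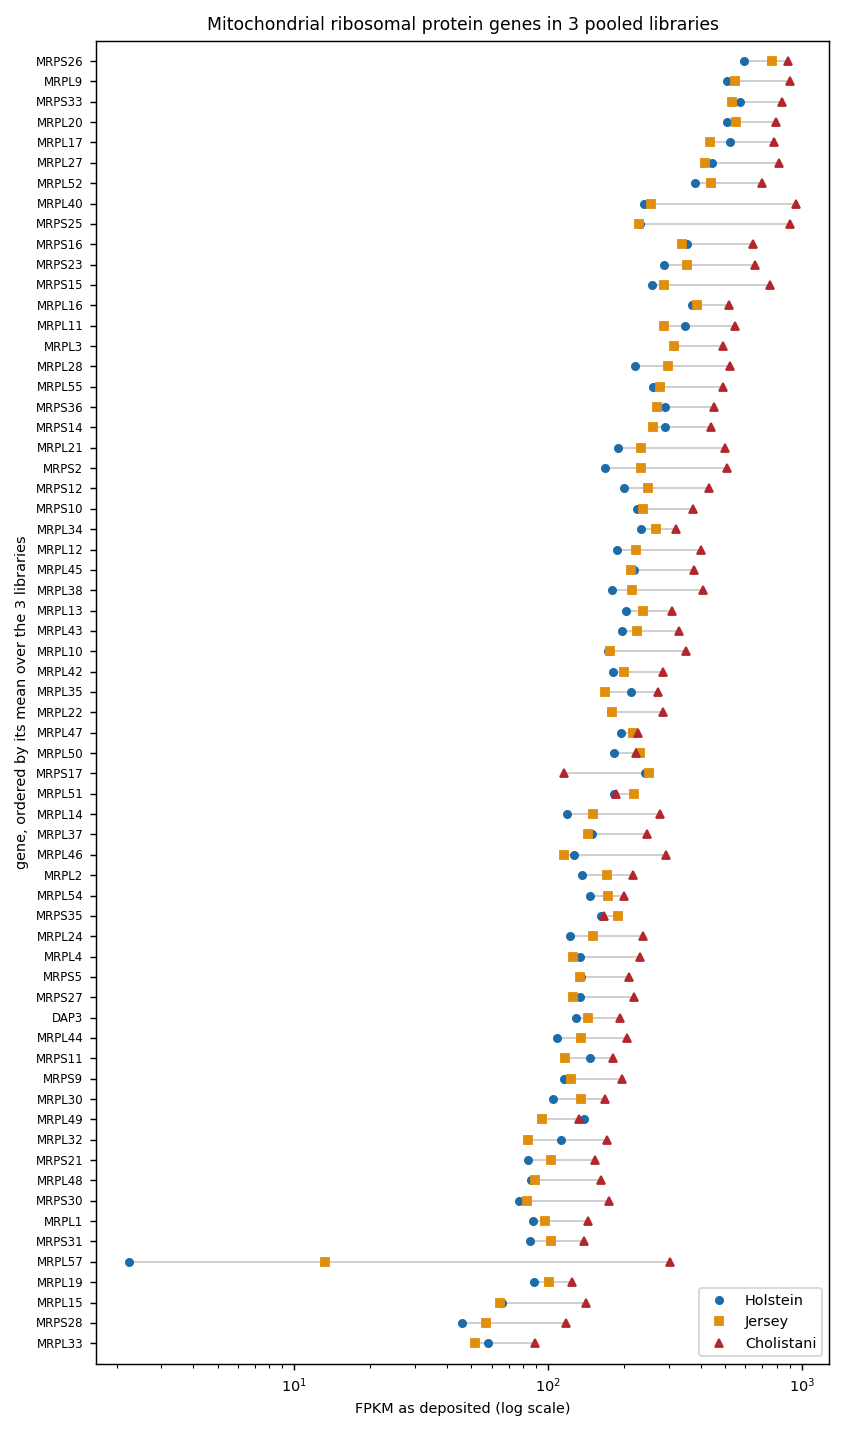
Deposited FPKM (log scale) of each of the 64 genes in the Holstein, Jersey and Cholistani pools, 1 marker per library, ordered by the mean over the libraries. The Cholistani marker lay to the right of both taurine markers in 59 genes (32 after rescaling), and MRPL57 had the widest spread, from 2.25 to 304 FPKM.

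The most abundant transcript by its mean was MRPS26, a small-subunit protein with no bacterial counterpart, with 592 FPKM in the Holstein pool, 766 in the Jersey pool and 887 in the Cholistani pool. MRPL9, a counterpart of a bacterial large-subunit protein, had 508, 546 and 899.8 FPKM, and MRPS33, another small-subunit addition, had 569, 529 and 835 FPKM. The Cholistani library was highest for all 3, and the taurine libraries were closer to each other than to it for MRPL9 and MRPS33 but not for MRPS26. MRPL20 had 508, 549 and 791 FPKM and MRPL17 had 521, 437 and 776 FPKM. Both are counterparts of bacterial proteins of the large subunit. The role groups were led, besides these, by MRPL52 (382, 441 and 697 FPKM) among the large-subunit additions and by MRPS16 (353, 338 and 645 FPKM) among the small-subunit counterparts. MRPS36 was in the same range, with 291, 270.3 and 452 FPKM.

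At the low end stood MRPL33, a small large-subunit protein, with 58.3 FPKM in the Holstein pool, 51.7 in the Jersey pool and 89.2 in the Cholistani pool. MRPL19, also of the large subunit, had 88.5, 100.6 and 125 FPKM. MRPS28 and MRPL15, described below, completed the 5 lowest means together with MRPL57. The order of levels was similar between libraries: over the 64 genes, Spearman's rho of the FPKM was 0.961 for Jersey with Holstein, 0.829 for Cholistani with Holstein and 0.845 for Cholistani with Jersey. These are descriptions across genes, which share gene models and lengths in all libraries and are not independent. Of the 10 highest genes in Holstein, 9 were among the 10 highest in Jersey and 7 among the 10 highest in Cholistani.

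With Holstein as the reference, 17 of the 64 genes had at least 2-fold higher FPKM in Cholistani, 1 was at least 2-fold lower and 46 were neither. Among all models above 0 in any library, 19.7% were at least 2-fold higher and 13.7% lower, and among the 6849 models whose mean FPKM lay within the range of these genes, 13.4% were higher and 5.87% lower. The folds of the 64 genes had a median of 0.72 with an interquartile range of 0.44, against a median of 0.22 with an interquartile range of 0.93 among the models of that range, and 62 of the 64 folds were above 0, against 62.2% of the models in that range and 56.1% of all models. By the interquartile range the genes lay in a narrower band than the models.

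After rescaling, 3 of the 64 genes (MRPL57, MRPL40 and MRPS25) remained at least 2-fold higher in Cholistani and 1 (MRPS17) was at least 2-fold lower. In the models of the same range of levels 3.5% were then higher and 21.2% lower. Of all 15284 models above 0 in any library, 1773 were then at least 2-fold higher and 4199 lower, so the background chosen matters here. The median fold of the genes became 0.05 and 37 of the 64 folds were above 0, against 25.7% of the models in the range. The size of the median and the number of genes past 2-fold thus depended on the scale. The median of the genes lay 0.49 above that of the models in the range as deposited. Rescaling shifts all folds by nearly the same amount, so this distance is no check of the scale.

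**Figure D2:**
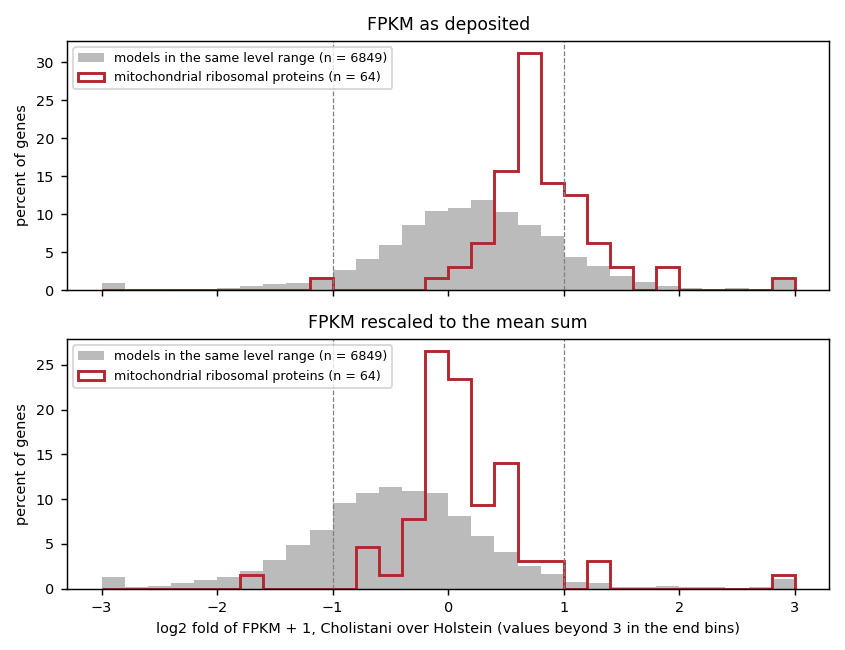
Log2 folds of FPKM + 1 of Cholistani over Holstein for the 64 genes (red outline) and the 6849 models within their range of mean FPKM (grey), as percent of genes per bin, as deposited (top) and after rescaling to the mean library sum (bottom), with dashed lines at 2-fold. The genes formed the narrower distribution on both scales, with a median of 0.72 as deposited and 0.05 after rescaling, against 0.22 and -0.44 for the models.

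Median folds of the role groups lay within a narrow range. As deposited they were 0.68 for the 27 large-subunit proteins with bacterial counterparts, of which 6 lay at least 2-fold above Holstein, and 0.82 for the 16 large-subunit additions, of which 5 were. The 12 small-subunit counterparts had a median of 0.81, with 4 at least 2-fold higher and 1 lower, and the 8 small-subunit additions one of 0.64, with 2 higher. Against these counts in small groups, 19.7% of all models above 0 were at least 2-fold higher and 13.7% lower. In the range of levels it was 13.4% and 5.87%. After rescaling the 4 medians were 0.01, 0.15, 0.13 and -0.04, and the large and the small subunit each had a median of 0.05.

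**Figure D3:**
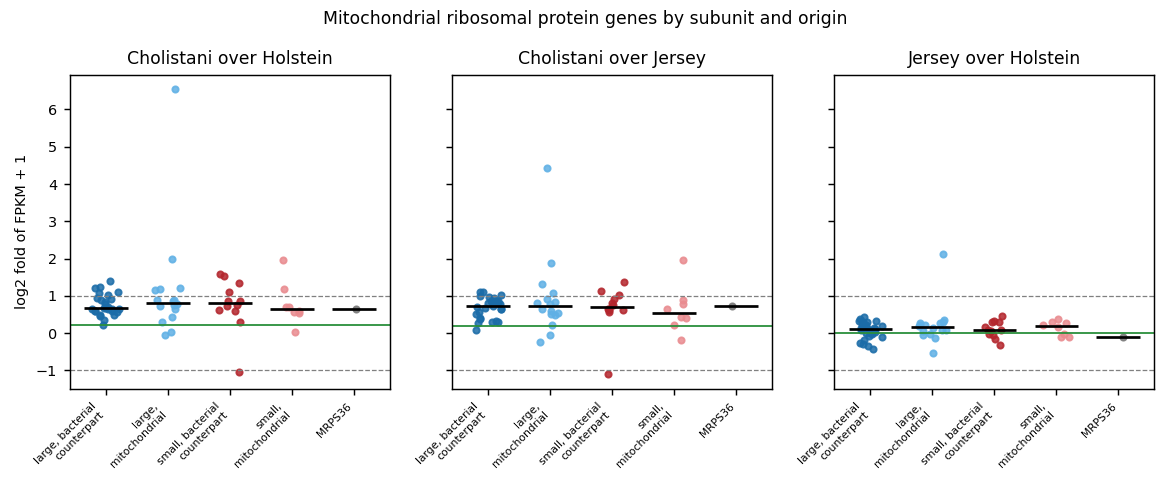
Log2 folds of FPKM + 1 for each gene by subunit and origin (points), with black bars at the group medians, a green line at the median of all models within the same range of levels and dashed lines at 2-fold. In both comparisons with Cholistani the group medians lay above the green line, between 0.64 and 0.82 against Holstein (-0.04 to 0.15 after rescaling, where the green line is at -0.44), while between Jersey and Holstein the points lay close to 0 apart from MRPL57.

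Among the large-subunit proteins with bacterial counterparts, MRPL21 had 189.6 FPKM in the Holstein pool, 234 in the Jersey pool and 500.5 in the Cholistani pool, a log2 fold of 1.40 over Holstein (0.72 rescaled). MRPL28 had 219.8, 298 and 520.2 FPKM, a fold of 1.24 (0.56 rescaled). In both genes Jersey lay between the other libraries, nearer to Holstein. MRPL10 and MRPL12 form the stalk of the large subunit, to which translation factors bind, and MRPL12 has also been found bound to the mitochondrial RNA polymerase. MRPL12 had 187, 222 and 402 FPKM, a fold of 1.10 (0.42 rescaled), and MRPL10 had 172, 176 and 349 FPKM, a fold of 1.02 (0.34 rescaled), so both stalk proteins were at about the same level within each library. MRPL14 had 119, 151 and 277 FPKM, a fold of 1.21 (0.53 rescaled). MRPL15 was among the least abundant of the 64 genes, with 66.2 and 64.98 FPKM in Holstein and Jersey and 141 FPKM in Cholistani, a fold of 1.08 (0.41 rescaled).

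The large-subunit additions held the most divergent gene. MRPL57, a small protein at chr12:35866034-35928689 of the btau4.0 assembly, had 2.25 FPKM in the Holstein pool, 13.2 in the Jersey pool and 304 in the Cholistani pool, and its log2 folds of Cholistani were 6.55 over Holstein (5.96 rescaled) and 4.42 over Jersey (3.84 rescaled). It ranked last of the 64 in both taurine libraries and stood at rank 31 in Cholistani. Its listed span is also that of a model merging SKA3 and ZDHHC20, which had 322, 281 and 278 FPKM, and how fragments were divided between these models was not tested. The lowest taurine values of the whole set belong to this gene with a shared span. Leaving MRPL57 out, the lowest Holstein level of the set was 46.0 FPKM, that of MRPS28.

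MRPL40, at chr17:76061347-76062949, had 240.1 FPKM in the Holstein pool, 255 in the Jersey pool and 951 in the Cholistani pool, the highest level of any of the 64 genes in that library, and ranked 18 in Holstein and 19 in Jersey. Its folds of Cholistani were 1.98 over Holstein (1.30 rescaled) and 1.89 over Jersey (1.29 rescaled). MRPL40 belongs to the central protuberance of the large subunit, the lobe at the subunit interface, together with MRPL38, MRPL46 and MRPL48. MRPL38 had 179, 215 and 407 FPKM, a fold of 1.18 over Holstein (0.51 rescaled). MRPL46 had 127, 116 and 292 FPKM, a fold of 1.20 (0.52 rescaled), and shares its span on chromosome 21 with MRPS11, which had 146, 117 and 181 FPKM and a fold of 0.31 (-0.37 rescaled). MRPL48, named after its values were seen, had 86.1, 89.3 and 161 FPKM and a fold of 0.90 (0.23 rescaled). MRPS30, which sits in the large subunit despite its symbol, had 77.2, 82.6 and 174 FPKM, a fold of 1.16 (0.49 rescaled).

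In the small subunit, MRPS2 had 167 FPKM in the Holstein pool, 232 in the Jersey pool and 507 in the Cholistani pool, a fold of 1.59 over Holstein (0.92 rescaled), and MRPS15 had 256, 287 and 747 FPKM, a fold of 1.54 (0.86 rescaled). MRPS12, a counterpart of the bacterial decoding-site protein that is the target of streptomycin resistance mutations, had 199, 248 and 433 FPKM, a fold of 1.12 (0.44 rescaled), and shares its span with a second model of low level. All 3 have bacterial counterparts, and Jersey lay between the other libraries in each. MRPS28 was one of the least abundant genes, with 46.0, 56.9 and 118 FPKM and a fold of 1.34 (0.67 rescaled).

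Of the small-subunit additions, MRPS25 at chr22:58776707-58859070 had 231 FPKM in the Holstein pool, 229 in the Jersey pool and 898 in the Cholistani pool. The taurine libraries were almost equal, and the folds of Cholistani were 1.95 over Holstein (1.28 rescaled) and 1.96 over Jersey (1.37 rescaled). MRPS23 had 287, 353 and 657 FPKM, a fold of 1.19 over Holstein (0.52 rescaled). MRPS25 thus stood at rank 20 of the 64 in Holstein, 27 in Jersey and 3 in Cholistani, and MRPS23 at ranks 14, 9 and 11. Among the genes higher in Cholistani than in Holstein, MRPL10 was just inside the 2-fold limit at 1.02 and MRPL24 just outside it at 0.94.

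MRPS17, a counterpart of a bacterial small-subunit protein, was the 1 gene at least 2-fold lower in Cholistani. At chr25:29478069-29482264 it had 241 FPKM in the Holstein pool, 250.3 in the Jersey pool and 116 in the Cholistani pool, folds of -1.05 (-1.72 rescaled) and -1.10 (-1.69 rescaled). The other model carrying its name, at chr10:3155733-3156125, had 66.0, 54.6 and 73.5 FPKM and a fold of 0.15 over Holstein. Reads could be split between these models, and with both summed the fold over Holstein was -0.69, short of 2-fold. The deposited level of 1 further gene was lower in Cholistani than in Holstein, though by less than 2-fold: MRPL49, named after its values were seen, had 138, 95.1 and 133 FPKM, a fold of -0.05 (-0.73 rescaled).

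The share of each gene in the summed FPKM of the 64 does not depend on the scale of the library. MRPL57 made up 0.0167% of the Holstein sum, 0.0926% of the Jersey sum and 1.26% of the Cholistani sum. MRPL40 made up 1.79%, 1.79% and 3.95%, and MRPS25 1.72%, 1.61% and 3.74%, which are 2.21 and 2.17 times the Holstein shares. These were the 3 genes whose Cholistani share was at least 2 times that in Holstein. MRPS17 took 1.8%, 1.75% and 0.483% of the sum and was the 1 gene with a share at or below 0.5 times that in Holstein. For 39 of the 64 genes (60.9%) the shares in Cholistani and Holstein were within 1.25 times of each other, while 13 had a share above that limit in Cholistani and 12 one below it. Among the models in the range of levels, with shares taken of their own sum, 34.9% were within the limit.

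**Figure D4:**
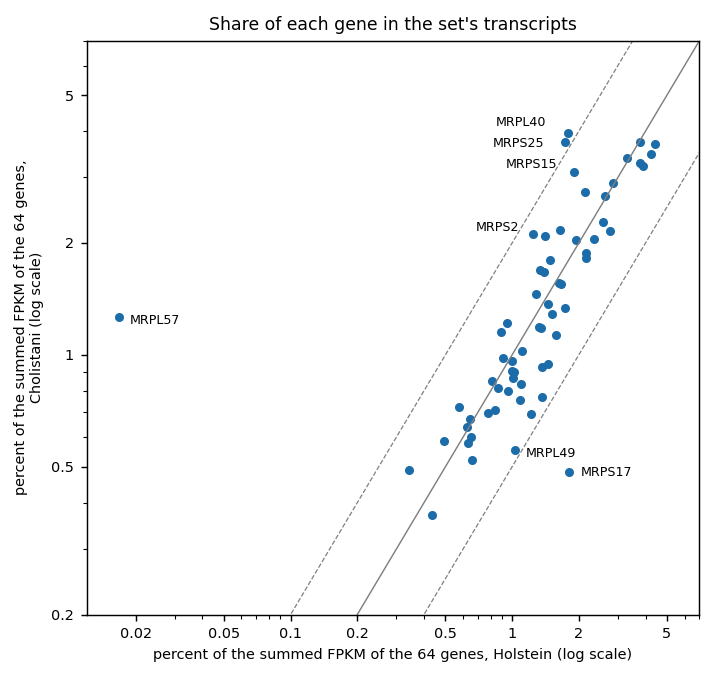
Share of each of the 64 genes in their summed FPKM, Holstein on the x axis and Cholistani on the y axis (percent, both log scales), with the line of equal shares and dashed lines at 2 times either way. MRPL57, MRPL40 and MRPS25 lay above the upper dashed line and MRPS17 below the lower one.

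With Jersey as the reference, 11 of the 64 genes had at least 2-fold higher FPKM in Cholistani, 1 was lower (MRPS17) and 52 were neither. Among all models above 0, 17.2% were at least 2-fold higher and 14.2% lower, and among the models in the range of levels 11% were higher and 5.37% lower. The median fold of the genes was 0.71, against 0.19 for the models in that range, and after rescaling it was 0.11 against -0.40. Rescaled, 3 genes were at least 2-fold higher (MRPL57, MRPL40 and MRPS25) and 1 lower, where the models of the range gave 3.29% higher and 18% lower. Of all 15284 models above 0 in any library, 1588 were higher and 4004 lower on that scale. This comparison uses the same Cholistani library as the one with Holstein and is no second measurement of it.

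The folds over Jersey were below those over Holstein for most of the genes described above. Many of those were named because they passed 2-fold over Holstein, a choice that favours larger folds there. Over all 64 genes the medians were close, 0.72 over Holstein and 0.71 over Jersey. Folds over Jersey were 1.12 for MRPS2 (0.53 rescaled), 1.38 for MRPS15 (0.78 rescaled), 1.04 for MRPS28 (0.44 rescaled) and 1.07 for MRPS30 (0.48 rescaled). MRPL21 had a fold of 1.09 (0.50 rescaled), MRPL15 one of 1.10 (0.51 rescaled) and MRPL46 one of 1.33 (0.73 rescaled). The 11 genes past the limit were these 7 with MRPL57, MRPL40 and MRPS25, and MRPL32. MRPL32, a large-subunit protein whose maturation requires a protease of the mitochondrial inner membrane, had 112 FPKM in the Holstein pool, 83.8 in the Jersey pool and 170.3 in the Cholistani pool, with folds of 1.02 over Jersey (0.42 rescaled) and 0.60 over Holstein (-0.08 rescaled). Jersey was the lowest library for this gene.

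Jersey and Holstein differed little. In this comparison 1 gene, MRPL57, was at least 2-fold higher in Jersey, with a fold of 2.13 (2.12 rescaled), none was lower and 63 were neither. Among all models above 0, 7.99% were at least 2-fold higher and 4.7% lower, and in the range of levels 2.42% and 0.803%. The Jersey level was above the Holstein level in 43 of the 64 genes and within 25% of it in 54 (84.4%). Among the models in the range of levels 52.4% were above Holstein and 79.7% within 25% of it. The median fold of the genes was 0.11, or 0.03 after rescaling, against 0.02 and -0.06 for those models. Apart from MRPL57, the folds ran from -0.54 for MRPL49 to 0.47 for MRPS2.

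The Cholistani level lay above both taurine levels in 59 of the 64 genes as deposited and in 32 after rescaling, and below both in 1 as deposited and in 16 after rescaling. Among the models in the range of levels 56.3% lay above both as deposited and 20.6% after rescaling, and 31.9% and 68.4% lay below both. Besides MRPS17 and MRPL49, the exceptions as deposited were MRPL50, MRPL51 and MRPS35, which are named here after their values were seen. MRPL50 had 182 FPKM in the Holstein pool, 231 in the Jersey pool and 223 in the Cholistani pool. MRPL51, whose span overlaps a condensin gene, had 182, 219 and 185 FPKM, and MRPS35 had 162.6, 189 and 166 FPKM. In these 3 genes the Jersey library was the highest.

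The 64 genes lay on 26 chromosomes, so they share no single location. Chromosome 19 carried 6 of them (MRPL10, MRPL12, MRPL27, MRPL38, MRPL45 and MRPS23), whose deposited folds of Cholistani over Holstein ran from 0.78 to 1.19 with a median of 1.06, where all models of the same range of levels on that chromosome had a median of 0.29. The 7 genes on chromosome 11 had a median of 0.62 against 0.22, the 6 on chromosome 3 one of 0.85 against 0.22 and the 5 on chromosome 7 one of 0.68 against 0.32. The median of the genes was above that of the models on 24 chromosomes, several of which held 1 gene, whose fold was then the median. It was below that of the models on 2, chromosome 5 with 3 genes (0.03 against 0.19) and chromosome 25 with 2 genes (0.10 against 0.60). The 32 genes with the shorter spans, 1252 to 9949 bp, had a median deposited fold of 0.80 over Holstein and a median level of 288 FPKM, and the 32 with the longer spans, 10670 to 240230 bp, 0.70 and 175 FPKM. Another model had exactly the same listed span as 12 of the genes, and overlap with models of other spans was not counted. For MRPS27 and MRPS31 that other model was listed at 0 in every library. Since the counting is not described as using strand, fragments of overlapping genes cannot be assigned with certainty. Of the 12 genes, MRPL57, MRPL46 and MRPS12 were the 3 whose Cholistani level was at least 2-fold above that of Holstein. Over all models above 0 this share was 19.7%.

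Apart from subunits listed under other names, given below, the name rule did not match 14 subunits: MRPL18, MRPL23, MRPL36, MRPL39, MRPL41, MRPL53, MRPS6, MRPS7, MRPS18A, MRPS18B, MRPS18C, MRPS22, MRPS24 and MRPS34. The 3 forms of MRPS18, whose entry names hold a letter, had models under those names, and MRPS18A had 181, 203 and 271 FPKM, MRPS18B 220.1, 220.9 and 324 FPKM and MRPS18C 268, 332 and 379 FPKM. Their folds of Cholistani over Holstein were 0.58, 0.56 and 0.50 (-0.09, -0.12 and -0.18 rescaled), near the lower quartile of the 64 genes at 0.59. A further pair of unmatched subunits stood on merged models, which hold another gene as well: that with MRPS34 had 365, 444 and 808 FPKM, a fold of 1.14 (0.47 rescaled), and that with MRPL53 had 134, 164 and 176 FPKM, a fold of 0.39 (-0.29 rescaled). Of the ribosomal subunits listed under a name other than an MRP symbol, 3 of 5 were measured and 1 was at least 2-fold higher in Cholistani. This was GADD45GIP1, with 146, 193 and 439 FPKM. ICT1, a peptidyl-tRNA hydrolase built into the large subunit, had 310.1, 357 and 433 FPKM and the small-subunit protein PTCD3 had 123, 141 and 155 FPKM.

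Other genes that serve mitochondrial translation were taken from lists of genes with known roles, each compared between Cholistani and Holstein. The shares to set beside these counts, over all models above 0 in any library, were 19.7% at least 2-fold higher and 13.7% lower. Of the factors that assemble the mitochondrial ribosome, 11 of 23 were measured, 3 were at least 2-fold higher and none lower, with a median fold of 0.79 (0.12 rescaled). The 3 were RCC1L with 64.5, 67.4 and 171 FPKM, the pseudouridine synthase RPUSD4 with 48.0, 60.1 and 133 FPKM, and MPV17L2 with 148, 177 and 298 FPKM, and the most abundant was NGRN with 542, 516 and 658 FPKM. Translation factors, of which 11 of 15 were measured, had 0 genes past 2-fold in either direction and a median of 0.08 (-0.56 rescaled), and their most abundant gene, the elongation factor TUFM, had 521, 562 and 1019 FPKM. Over Jersey the assembly factors had a median of 0.44 (-0.16 rescaled) and the translation factors one of -0.01 (-0.60 rescaled), against 0.71 (0.11 rescaled) for the 64 genes, and differences between the lists were not tested.

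Of the mitochondrial aminoacyl-tRNA synthetases, which charge the transfer RNAs, 10 of 20 were measured, 0 were at least 2-fold higher and 1 was lower, with a median fold of 0.36 (-0.31 rescaled). The lower one was PARS2, the prolyl enzyme, with 45.4, 39.3 and 15.3 FPKM, and the most abundant was SARS2, the seryl enzyme, with 137, 168 and 248 FPKM. Genes that maintain and transcribe mitochondrial DNA or process its RNA had 12 of 18 measured, 2 at least 2-fold higher and 0 lower, and a median of 0.28 (-0.39 rescaled). The 2 were SLIRP, which stabilizes mitochondrial messages, with 295, 378 and 682 FPKM, and HSD17B10, a subunit of mitochondrial RNase P, with 636, 827 and 1393 FPKM. Regulators of nuclear genes for mitochondria had 3 of 8 measured, 0 past 2-fold and a median of -0.18 (-0.85 rescaled), and their most abundant gene, GABPB1, had 109, 108.5 and 96.4 FPKM.

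For comparison, the 73 measured genes of the cytosolic ribosome had 13 genes at least 2-fold higher and 3 lower in the Cholistani library, against Holstein, with a median fold of 0.57 (-0.11 rescaled) and a range from -1.57 to 1.95. The 32 measured genes named as nuclear subunits of complex I, which join mitochondrially encoded subunits in the respiratory chain, had 15 higher and 1 lower. Their median was 0.87 (0.19 rescaled), with a range from -1.19 to 1.53. Both lists were taken by name alone, NDUFA4 included, and membership of each gene in the complex was not checked. All models above 0 had 19.7% at least 2-fold higher and 13.7% lower in the same comparison. The median of the mitochondrial ribosomal proteins, 0.72 (0.05 rescaled), lay between those of these lists. Between Jersey and Holstein the medians were 0.21 for the cytosolic ribosome (0.13 rescaled) and 0.07 for complex I (-0.01 rescaled), against 0.11 for the 64 genes (0.03 rescaled).

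**Figure D5:**
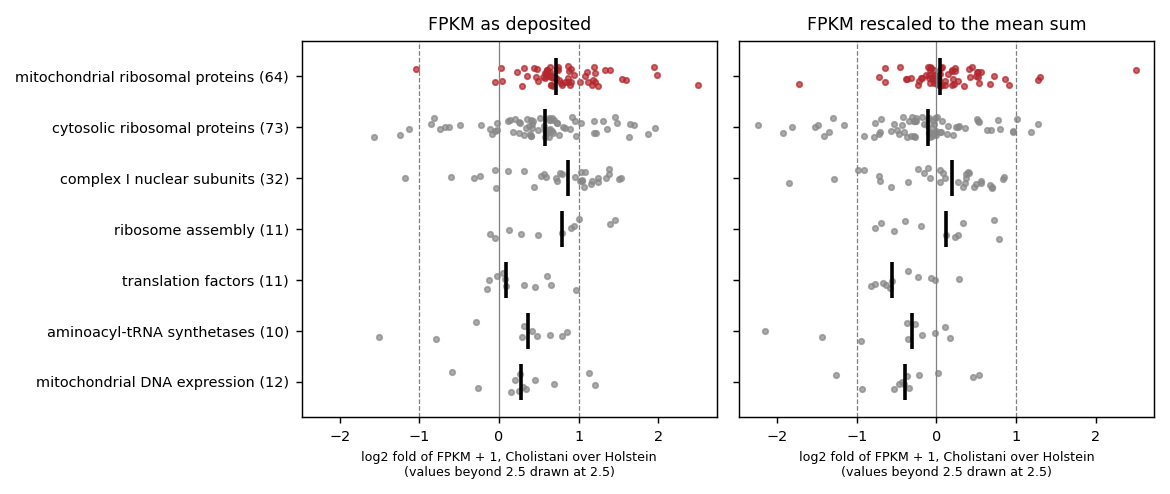
Log2 folds of FPKM + 1 of Cholistani over Holstein for the 64 genes (red) and for 6 other gene lists (grey), with black bars at the list medians and dashed lines at 2-fold, as deposited (left) and rescaled to the mean library sum (right). Rescaling lowered every median, that of the mitochondrial ribosomal proteins from 0.72 to 0.05, and values beyond 2.5 (MRPL57) are drawn at 2.5.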

How the data were processed

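Leukocyte RNA of pooled cows was sequenced on 1 lane per breed. TopHat v1.0.14 with Bowtie v0.12.7 served the authors for alignment to btau4.0. The deposited FPKM of the gene models came from Cufflinks v0.9.3, with upper-quartile normalization and bias correction. Depth per gene is unknown, and no counting interval could be given. The FPKM were used as deposited. Folds were log2 of FPKM + 1, and a limit of 2-fold was a description, since 1 library per breed allows no test. For 5 models the taurine values were missing, and these were left out. Listed starts were taken to count from 0 and 1 was added.

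The 64 genes and the other lists were chosen with earlier results of these data known. Role groups follow the known subunit and origin of each protein. Genes were named if at least 2-fold different in any comparison, among the 5 highest or 5 lowest means, or among the 2 highest means of a role group, and in other lists if at least 2-fold different between Cholistani and Holstein or of the highest mean. Outside these rules, MRPL24 was named for its fold near the limit and MRPS11, MRPS27 and MRPS31 for shared spans. MRPL27 and MRPL45 were named for their chromosome, PTCD3 as a subunit, and subunits that the name rule did not match for completeness. Genes named after their values were seen are marked as such above, except MRPL24. All 64 symbols were present in a RefSeq gene table, which was used for names only. Alternatives were pseudocounts of 0.1 and 10 FPKM, a minimum of 10 FPKM, detection limits of 1 and 10 FPKM, 2 other scales, and other handling of names on several models. Python 3.11.15, pandas 2.3.3, numpy 2.4.6 and matplotlib 3.10.9 were used, and the code was tested on simulated data.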

Additional observations from a re-analysis of the deposited data

How the results depend on the processing

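Each breed had 1 library, so leaving out a library was not possible and no spread exists. No paired analysis was possible because each breed has 1 library. Of the counts and medians over the 64 genes, 72 values under the alternatives stayed close to those reported and 15 moved, and none reversed. Close took in a fall from 11 to 8 genes over Jersey with a pseudocount of 10 FPKM. Some alternatives could move little: the minimum of 10 FPKM left the values against Holstein unchanged, and only MRPS17 stands on several models. For folds of single genes, 125 values moved and 646 stayed close. Rescaling took some below 0, as MRPS26 over Holstein from 0.58 to -0.09. The scale mattered most. Rescaling to the mean library sum left 3 genes at least 2-fold above Holstein in the Cholistani library and 3 above Jersey, with medians of 0.046 and 0.11. Centring on the median of models with at least 10 FPKM gave 9 and 5, with medians of 0.52 and 0.54. The 1 lower gene, MRPS17, is a single call. The count of lower genes was 0 against Holstein and 0 against Jersey with its 2 models summed, and 0 against Holstein with a pseudocount of 10 FPKM. Keeping only names on 1 model leaves MRPS17 out, so the count of 0 there was fixed in advance and says nothing about the call. MRPL57 alone made the count between Jersey and Holstein, which was 0 with a pseudocount of 10 FPKM. It was also 0 without genes sharing a span with another model, an alternative that removes MRPL57 itself and so could give no other count. That last alternative, the addition of the MRPS18 family and the background of models in the same range of levels were chosen after seeing the data.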
